A study of Mus musculus with 12 samples.

Results

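Translation elongation is carried out by a small set of abundant proteins. eEF1A (encoded by Eef1a1 and Eef1a2) brings aminoacyl-tRNA to the ribosome, the eEF1B complex (Eef1b2, Eef1d and Eef1g) recharges eEF1A with GTP, and eEF2 (Eef2) moves the ribosome along the mRNA. Most of these mRNAs belong to the TOP class, which starts at the cap with a cytosine and a run of pyrimidines (a terminal oligopyrimidine tract) and whose translation follows mTORC1 activity. LARP1 is an RNA-binding protein that holds the cap and this tract. The set described here also holds Tpt1 (translationally controlled tumour protein, TCTP), Naca and Btf3 (the alpha and beta subunits of the nascent polypeptide-associated complex, NAC, which meets new chains at the ribosome) and Hnrnpa1 (a splicing factor and shuttling RNA-binding protein). Members were chosen by name, as the entries of the count table whose Ensembl identifier maps to these 10 symbols. All 10 were found, among 15391 genes, and all 10 passed the filter on low counts.

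The 4 groups were shLarp1 IP, control IP, shLarp1 input and control input. All came from cultured adult mouse dorsal root ganglion neurons of genotype RPL22HA+/+;Advillin-Cre+, which were preconditioned, meaning that the sciatic nerve had been injured before culture to bring the neurons into a regenerative state. Advillin-Cre switches on the HA tag on the ribosomal protein Rpl22 in sensory neurons. The anti-HA immunoprecipitate (IP) is thus meant to sample ribosomes of those cells, while the input holds all RNA of the lysate. Glial markers were also counted in the IP, at levels given below. An adeno-associated virus (AAV) carried a short hairpin RNA against Larp1 or a control construct, which is named AAV-Control in the IP titles and AAV-shControl in the input titles. Of age the labels say adult and no more. The extraction text speaks of ganglia collected fresh, whereas the source is given as cultured neurons.

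Each group had 3 columns of counts, with 3126591 to 3177552 counts per column in the IP and 564095 to 760140 in input. The columns of a group differed from each other by about the counting noise. Their totals lay within 0.0939% of each other. A chi-square of the 3 columns had a median over genes of 1.46 to 1.53 in the 4 groups, where counting noise alone gives 1.39. They were therefore summed and counted as 1 sample per group, so no difference below has a replicate check, and every interval is a 95% interval for counting error only. Columns that do not overlap between groups, where mentioned below, are no replicate check either. The share of all genes with such columns was not counted. Reads copied by PCR do not count separate molecules, since the kit has no molecular identifiers. Below, higher and lower are used as calls for a gene whose log2 ratio has its entire interval past 1.5-fold. Larp1, the target, was lower in the IP, with 149 counts for shLarp1 and 442 for control (log2 -1.72, interval -2.0 to -1.45), and it had 8 counts in shLarp1 input and 18 in control input (log2 -1.37, -2.78 to -0.09, not called). Rpl22, the tagged protein, had log2 ratios of -0.18 in the IP and -0.19 in input. Sensory neuron markers were present in all groups (10 of 10), those of glia, fibroblasts and macrophages were present as well, and of 5 skeletal muscle markers 1 was in the table.

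The annotated starts of the genes show where a TOP tract could lie. RefSeq promoter entries (assembly GRCm38.p6, used for sequence only) were found for 8 of the 10 members, with 9 entries because Btf3 has 2. The first 50 bases after each annotated start were searched on the transcribed strand for a C followed by at least 4 pyrimidines (C or T). The tract was found in 5 of the 8 members, 62.5%, and in 6 of their 9 entries, against 51.3% of all 32851 entries. On the opposite strand it was found in 58.3% of all entries, and among the members in Eef1a1, Eef1b2, Tpt1, Naca and Hnrnpa1. For the 5 members with a tract on the transcribed strand, it is printed in capitals within 30 bases, 5′ to 3′ on that strand. LARP1 binds a tract of this kind where it adjoins the cap.

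Eef1a2, chr2:181156979-181157008, minus strand, tract from base 18: ctcactggttCTCTCCCTCgctccggtgca

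Eef2, chr10:81176636-81176665, plus strand, tract from base 16: cgtcagcggtCTCTTCCgccgcagccgccg

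Btf3 (entry 1), chr13:98316926-98316955, minus strand, tract from base 23: cgtgtgtgcgCCTTCTCTCagctggtctgc

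Btf3 (entry 2), chr13:98316966-98316995, minus strand, tract from base 22: ttacttccggCCTCCCTCTagctgccatct

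Eef1b2, chr1:63176851-63176880, plus strand, tract from base 33: tgcgtccgagcgCTTTCgttcaactccggc

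Tpt1, chr14:75845276-75845305, plus strand, tract from base 41: cggtgacgtagccgagcgtgCCCTCTatat

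Bases are counted from 1 at the annotated start. None of these tracts began at base 1, which 2.51% of all entries had. An annotated start is not a measured cap site: the letters TATAA, found in 6.81% of all entries between 50 bases before and 50 bases after the start (4.53% on the opposite strand), lay at base 26 after the annotated start of Eef1a1 and 15 bases before that of Eef2. On the transcribed strand no such tract was found in the searched bases for Eef1a1, Naca and Hnrnpa1.

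In the IP, where the question was whether the ribosome-bound level of these mRNAs changed after Larp1 knockdown, none of the 10 members was called in either direction. The background was 5.12% of 8766 genes (449), with 0.719% higher and 4.4% lower. Among the 1431 genes with at least as many IP counts as Hnrnpa1, the member with the fewest, it was 4.89%, with 0.0699% higher and 4.82% lower. The log2 ratios of shLarp1 to control ran from -0.17 to 0.21 with a median of -0.04, where all genes together had -0.08. The 2 NAC subunits, the 3 subunits of eEF1B and both eEF1A genes all lay inside this range.

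The eEF1A genes lay on either side of 0 within that range. Eef1a1, the widely expressed form, had 2418, 2478 and 2465 counts in shLarp1 IP and 2338, 2444 and 2330 in control IP. After scaling (TMM, which sets the groups to a common trimmed mean) these are 501 CPM (counts scaled to a common library size) in shLarp1 IP and 538 in control IP, a log2 ratio of -0.10 (-0.15 to -0.06). The scaled columns of the groups did not overlap, but the sign turned to above 0 with upper-quartile and total-count scaling, with values up to 0.03. Eef1a2 is described as the form that takes over in adult neurons and muscle, but in every group here it held fewer counts than Eef1a1. It had 705, 723 and 730 counts in shLarp1 IP and 559, 539 and 579 in control IP. All 3 shLarp1 columns were above all 3 control columns, the log2 ratio was 0.21 (0.12 to 0.30), and it was above 0 under all 4 other scalings (0.22 to 0.34).

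Of the eEF1B subunits, Eef1b2 had 3021 to 3157 counts per column in shLarp1 IP and 3106 to 3184 in control IP, a log2 ratio of -0.17 (-0.21 to -0.12). Eef1g, the gamma subunit, had 740, 740 and 664 counts in shLarp1 IP and 739, 694 and 693 in control IP (log2 -0.14, -0.23 to -0.05). Eef1b2 and Eef1g lay below 0 under all 4 other scalings, with values no closer to 0 than -0.04 and -0.01. Eef1d, the delta subunit, had 437 to 450 counts per column in shLarp1 IP and 392 to 413 in control IP, a log2 ratio of -0.01 (-0.13 to 0.10), and its scaled columns overlapped. Eef2 had 1053, 1067 and 988 counts in shLarp1 IP and 974, 964 and 985 in control IP (log2 -0.06, -0.14 to 0.01), an interval that includes 0. Even so, the scaled columns of Eef2 did not overlap between the IP groups, and nor did those of Eef1b2 and Eef1g.

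Tpt1, which binds calcium and microtubules and is named for its translational control, had almost the same level in both IP groups. Its columns held 1888, 1898 and 1928 counts in shLarp1 IP and 1743, 1755 and 1662 in control IP, or 389 scaled CPM in shLarp1 IP and 390 in control IP (log2 -0.01, -0.06 to 0.05). Of the NAC subunits, Naca had 4314 to 4455 counts in shLarp1 IP and 3963 to 4035 in control IP (log2 -0.02, -0.05 to 0.02). Btf3 had 1975, 1910 and 1970 counts in shLarp1 IP and 1519, 1601 and 1555 in control IP, with no overlap between the columns. Its log2 ratio was 0.17 (0.12 to 0.23), and 0.18 to 0.30 under the other scalings. Hnrnpa1 had 241, 241 and 269 counts in shLarp1 IP and 216, 300 and 245 in control IP (log2 -0.17, -0.32 to -0.02). Its control IP columns spread more than counting noise, with a chi-square of 14.3, where all other members had at most 5.42 in any group.

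**Figure D1:**
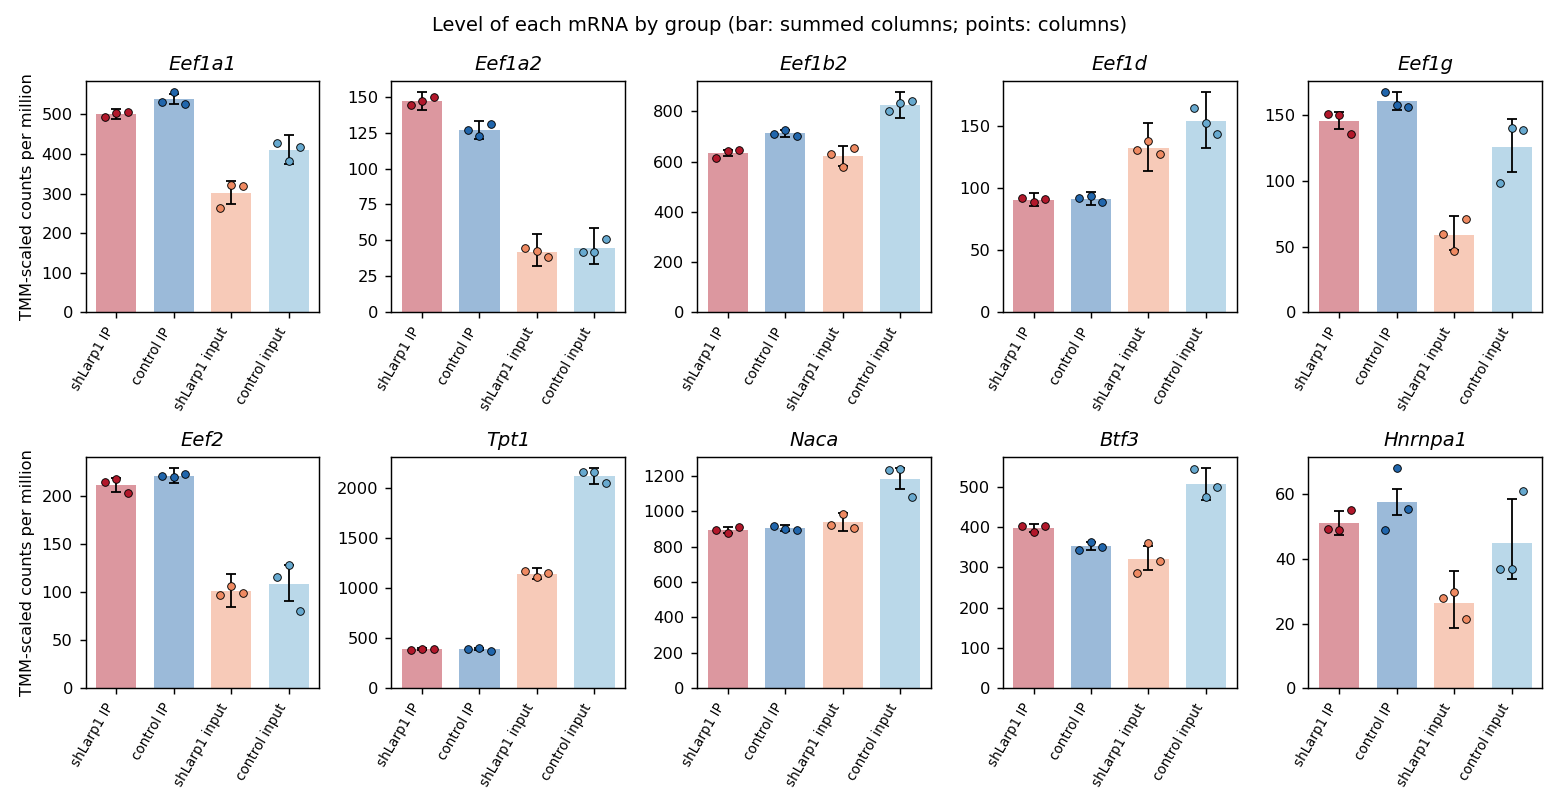
Level of each of the 10 mRNAs in TMM-scaled CPM (y axes start at 0 and differ between panels) in shLarp1 IP, control IP, shLarp1 input and control input. Bars are the summed columns with a 95% Poisson counting interval, points are the 3 columns; Tpt1 stands at 389 in shLarp1 IP and 390 in control IP, with 1145 in shLarp1 input and 2119 in control input.

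In input, where the question was the level in the RNA of the whole lysate, 2 of the 10 members were called lower, Eef1g and Tpt1, and none higher. Of 7588 genes, 1.19% were called (90), with 0.171% higher and 1.01% lower. Among the 1737 genes with at least as many input counts as Hnrnpa1, 2.25% were called, with 0.288% higher and 1.96% lower. The direction of the calls over all genes depended on the scaling: 13 higher and 77 lower with TMM, but 181 and 35 with DESeq2 size factors, 117 and 43 with upper-quartile factors, 214 and 29 with TMM on a control IP reference, and 7 and 204 with total counts. All 10 members had log2 ratios below 0 with TMM scaling, with a median of -0.43 and a range of -1.09 to -0.10, beside a median of -0.14 over all genes. For Eef1a2 and Eef2 the sign turned under 3 of the 4 other scalings and for Eef1d under 1. The other 7 members stayed below 0 under all 4, and in those 7 the TMM interval lay below 0 as well. The share of all genes that did the same was not counted, so these 7 have no background to be read against. The 10 mRNAs together held 0.227% of all counts in shLarp1 input and 0.399% in control input, against 0.534% in shLarp1 IP and 0.501% in control IP.

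Tpt1 carried the most input counts of the set. Its columns held 545, 524 and 535 counts in shLarp1 input and 876, 876 and 838 in control input, although the shLarp1 columns were the deeper ones. The scaled level was 1145 CPM in shLarp1 input (1089 to 1202) and 2119 in control input (2038 to 2203), a 1.85-fold lower level (log2 -0.89, -0.98 to -0.80). The columns stood far apart. With a control IP column as the TMM reference the ratio was -0.65 (-0.74 to -0.56), which is not called, and the values under all 4 other scalings ran from -1.12 to -0.65. Leaving out control input column 1, which is the TMM reference, gave -0.66 and ended the call; with control input column 2 as the reference in its place, an alternative added after seeing the data, it was -0.86 and Tpt1 was called.

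Eef1g had 28, 22 and 33 counts in shLarp1 input and 40, 57 and 57 in control input, 83 and 154 in sum. Every shLarp1 column was below every control column, and the level was 2.13-fold lower (log2 -1.09, -1.49 to -0.69). The call rests on few counts. It ended under DESeq2 size factors (-0.88), upper-quartile factors (-0.94) and TMM with a control IP reference (-0.85), and without control input column 2 (-0.996), control input column 3 (-1.001) or shLarp1 input column 2 (-0.93), while the ratio stayed below 0 in each.

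The other members of the NAC and eEF1B complexes were below 0 in value and were not called. Btf3 had 134, 170 and 147 counts in shLarp1 input and 221, 193 and 205 in control input (log2 -0.65, -0.83 to -0.48). Naca had 432, 464 and 420 in shLarp1 input and 501, 504 and 443 in control input (-0.34, -0.44 to -0.23). Eef1b2 had 294, 273 and 304 in shLarp1 input and 326, 338 and 344 in control input (-0.41, -0.54 to -0.28). In these 3 mRNAs the scaled shLarp1 columns lay below the control columns, a separation that was not counted over all genes. Eef1d, with 185 counts in shLarp1 input and 188 in control input, had -0.22 (-0.52 to 0.08), an interval that reaches above 0. Its scaled columns nevertheless stood apart in the same way.

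Eef1a1 had 123, 151 and 148 counts in shLarp1 input and 174, 155 and 171 in control input (log2 -0.44, -0.63 to -0.25). Eef1a2 had 21, 20 and 18 counts in shLarp1 input and 17, 17 and 21 in control input (-0.10, -0.65 to 0.46). Eef2 had 45, 50 and 46 counts in shLarp1 input and 47, 52 and 33 in control input (-0.10, -0.45 to 0.25). For Eef1a2 and Eef2 the scaled columns overlapped. At this depth a call for Eef1a2, which needs the whole interval past 1.5-fold, would take a difference well above 1.5-fold. Hnrnpa1 had 13, 14 and 10 counts in shLarp1 input and 15, 15 and 25 in control input (-0.77, -1.41 to -0.14), a wide interval that misses the 1.5-fold rule.

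The summed neuronal markers were also lower in shLarp1 input, mostly through Uchl1, an abundant neuronal ubiquitin hydrolase. The 10 sensory neuron markers summed to 608 to 614 CPM of a column's total in shLarp1 input and 1325 to 1365 in control input, a 1.88-fold lower scaled level (log2 -0.91). Of the 10, 6 were below 0 and 4 above, and Uchl1 alone was called lower, with 935 counts in shLarp1 input and 1772 in control input (log2 -1.12). Without Uchl1, a sum added after seeing the data, the other 9 had 459 counts in shLarp1 input and 509 in control input (log2 -0.35). Tubb3, with the most input counts of these 9, had 162 in shLarp1 input and 249 in control input (-0.82, -1.11 to -0.53, not called). In the IP the sum had a log2 ratio of 0.07 with Uchl1 and -0.13 without it. The 8 glial markers had 341 to 383 CPM in shLarp1 input and 385 to 424 in control input (log2 of the scaled sum 0.06), the 6 fibroblast markers -0.18 on 74 counts in shLarp1 input and 73 in control input, and the macrophage markers (4 of 5 in the table) -0.77 on 78 counts in shLarp1 input and 116 in control input. The scaled glial sum was 481 CPM in shLarp1 IP and 518 in control IP, beside 584 in shLarp1 input and 559 in control input. The scaled neuronal sum was 4931 CPM in shLarp1 IP and 4713 in control IP, beside 995 in shLarp1 input and 1866 in control input. Single glial markers were called in both directions for IP over input. The IP was therefore not shown to be free of glial RNA. The part of these markers in the IP and input values was not tested. In bulk RNA fewer cells of a type cannot be told apart from less RNA per cell.

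**Figure D2:**
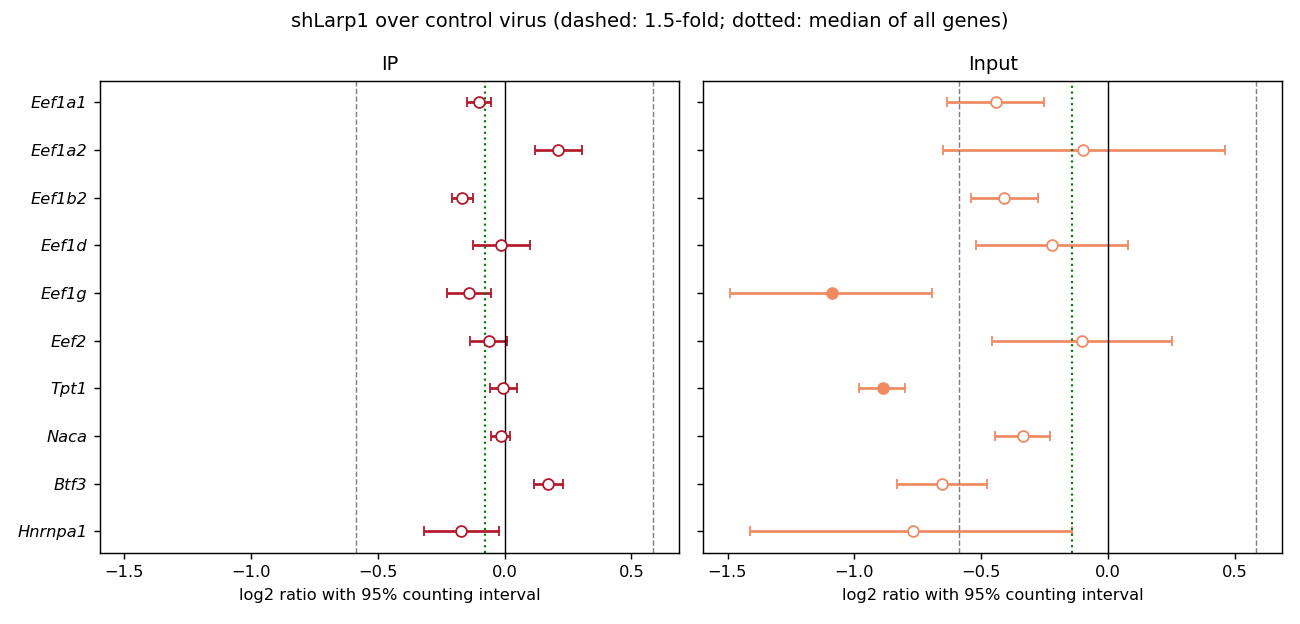
Log2 ratio of shLarp1 to control virus for each mRNA in the IP (left) and in input (right), with 95% counting intervals. Dashed lines mark 1.5-fold, the dotted line the all-gene median (-0.08 in the IP, -0.14 in input), and filled points are called; Eef1g and Tpt1 in input are the filled ones.

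**Figure D3:**
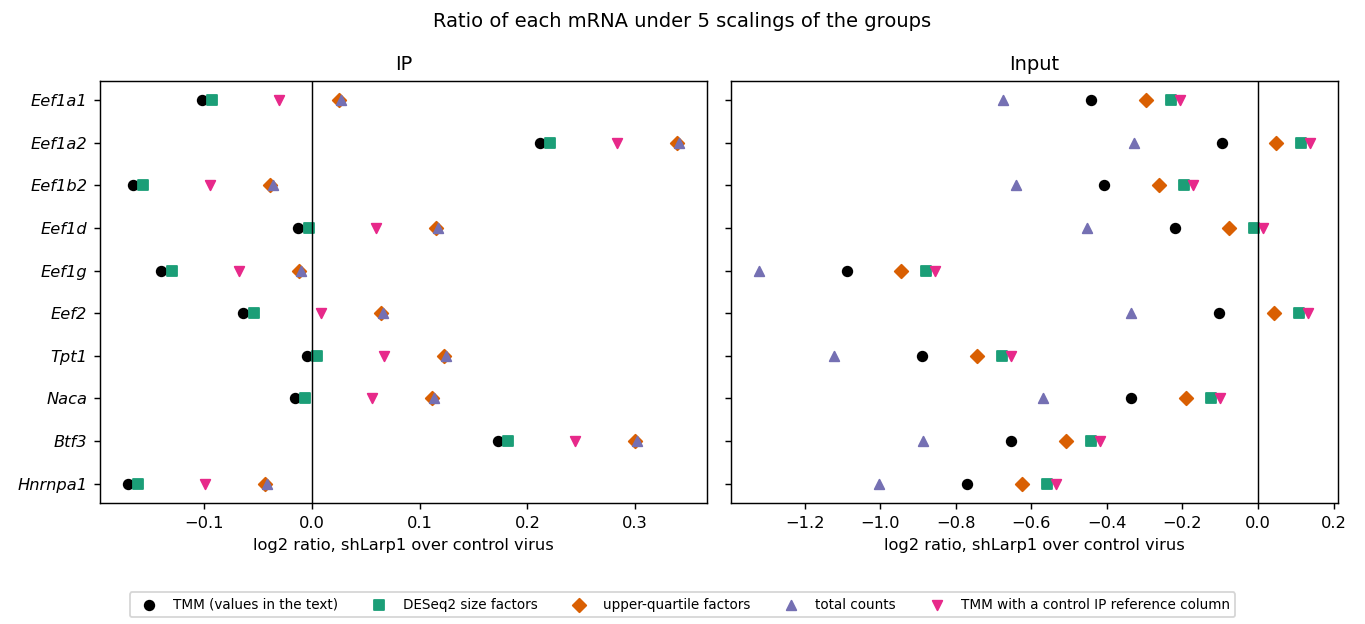
Log2 ratio of shLarp1 to control virus for each mRNA under 5 scalings of the groups, in the IP (left) and in input (right). In the IP only Eef1a2 and Btf3 stay above 0 and only Eef1b2, Eef1g and Hnrnpa1 stay below 0 under all 5; in input 7 mRNAs stay below 0 under all 5, with Eef1g at -1.32 to -0.85 and Tpt1 at -1.12 to -0.65.

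Scaling moved all members of a comparison by the same amount. The all-gene median in input shifted by 0.21 with DESeq2 size factors, 0.14 with upper-quartile factors, -0.23 with total counts and 0.23 with TMM on a control IP reference, and in the IP by 0.13 with upper-quartile factors and with total counts. Ratios between partner mRNAs within a group are free of this, since the scaling cancels. Relative to Eef1d, Eef1g was 1.83-fold lower in shLarp1 input than in control input (log2 -0.87, -1.35 to -0.38, an interval that leaves out 0 but reaches within 1.5-fold), and had -0.13 (-0.27 to 0.01) in the IP. Relative to Eef1b2, Eef1g had -0.68 (-1.09 to -0.27) in input and 0.03 (-0.07 to 0.12) in the IP. Both ratios with Eef1g thus had intervals below 0 in input, whereas Eef1b2 relative to Eef1d had -0.19 (-0.51 to 0.13) there. These pairs were added after values were seen. They use the same Eef1g counts as its call, so they are not separate support for it.

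The NAC pair differed between fractions as well. Btf3 made up 30.8% of the Btf3 and Naca counts in shLarp1 IP (exact interval 30.1 to 31.5) and 28.1% in control IP (27.4 to 28.8), but 25.5% in shLarp1 input (23.5 to 27.6) and 29.9% in control input (27.98 to 31.97). On the log2 scale the Btf3 to Naca ratio thus changed with shLarp1 by 0.19 (0.12 to 0.25) in the IP and by -0.32 (-0.52 to -0.11) in input. Both intervals leave out 0 and lie within 1.5-fold, and the pair was added after values were seen. Eef1a2 made up 22.7% of the eEF1A counts in shLarp1 IP (21.8 to 23.5) and 19.1% in control IP (18.3 to 19.9), a log2 ratio of ratios of 0.31 (0.21 to 0.42). In input the shares were 12.3% for shLarp1 (9.47 to 15.5) and 9.91% for control (7.55 to 12.7), with 0.35 (-0.22 to 0.91), an interval that includes 0. The Eef2 to Eef1a1 ratio had 0.04 (-0.05 to 0.13) in the IP and 0.34 (-0.05 to 0.73) in input.

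**Figure D4:**
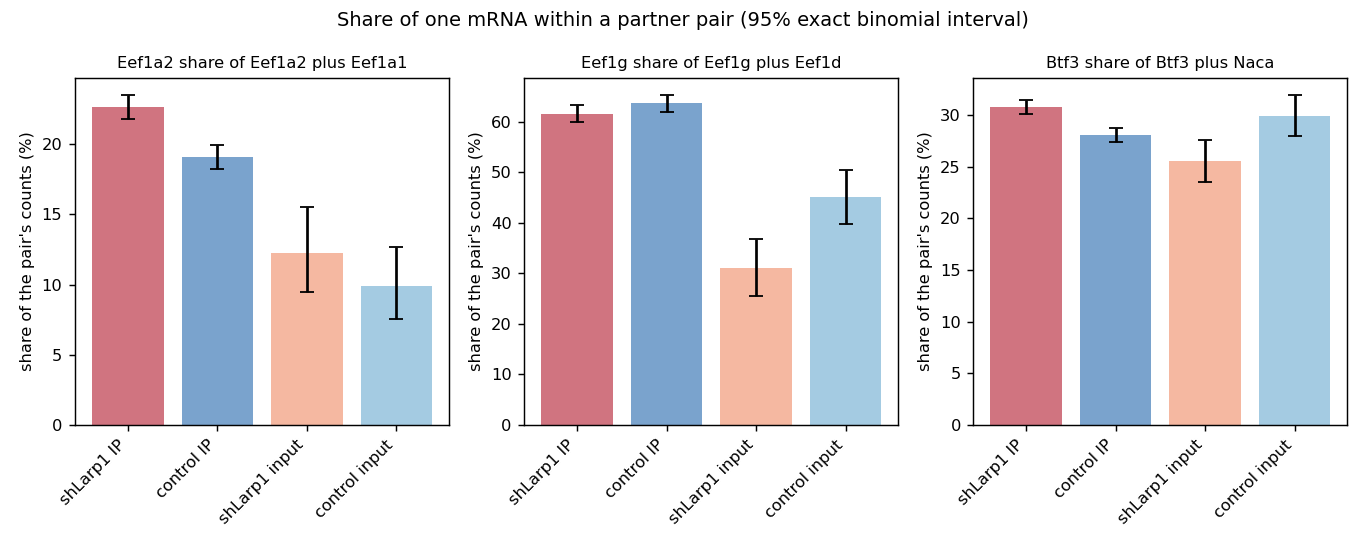
Share of one mRNA in the counts of a partner pair, in percent with exact 95% binomial intervals, for Eef1a2 with Eef1a1, Eef1g with Eef1d and Btf3 with Naca, in shLarp1 IP, control IP, shLarp1 input and control input. Eef1a2 takes 22.7% in shLarp1 IP and 19.1% in control IP, and Eef1g takes 31.0% in shLarp1 input and 45.03% in control input.

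The difference between the virus effect in the IP and that in input (the interaction) shares its groups with both comparisons above. In it 2 members were called higher, Tpt1 and Btf3, beside 6.96% of 7581 genes called, with 1.39% higher and 5.58% lower. Of the 1735 genes with at least as many input counts as the lowest member, 23.6% were called, with 2.77% higher and 20.8% lower. Tpt1 had 0.88 (0.78 to 0.99) and Btf3 0.83 (0.64 to 1.01). Eef1g had the highest value of the set, 0.95, but its interval of 0.55 to 1.34 reached below 1.5-fold. All 10 members were above 0, with a median of 0.33 beside 0.07 over all genes. The sign held under the 4 other scalings in 9 of them, and Eef2 (0.04, -0.31 to 0.39) turned under 2. The share of all genes whose sign held was not counted. With DESeq2 size factors neither was called (Tpt1 0.68, Btf3 0.62), and Btf3 was not called with a control IP reference (0.66), without control input column 1 (0.64) or without shLarp1 input column 1 (0.76).

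Next, IP was set against input within each virus, which asks how strongly an mRNA stood in the ribosome pulldown relative to the lysate. Eef1a2 and Eef2 stood higher in the IP with either virus, and Tpt1 stood lower. With shLarp1, 4 members were called higher (Eef1a1, Eef1a2, Eef1g and Eef2) and 1 lower (Tpt1), beside 39% of 8771 genes called, with 25.9% higher and 13.1% lower. With control, 2 were called higher (Eef1a2 and Eef2) and 1 lower (Tpt1), beside 35.5% of 8773 genes called, with 23% higher and 12.5% lower. Among genes with at least the counts of the lowest member, 61.5% were called with shLarp1 (33.4% higher, 28.1% lower) and 58.1% with control (28.9% higher, 29.2% lower). With 5 of 10 members called with shLarp1 and 3 of 10 with control, the members were not called more often than these genes. The direction of these calls depended on the scaling. With shLarp1, 1 member was higher and 2 lower with upper-quartile factors and 8 higher and 0 lower with total counts, where all genes had 1328 higher and 1489 lower, and 6183 higher and 748 lower. With control, 1 member was higher and 5 lower with upper-quartile factors and 6 higher and 1 lower with total counts, where all genes had 1293 higher and 1590 lower, and 4549 higher and 651 lower. The median of the members was 0.52 with shLarp1, where all genes had 0.93, and 0.07 with control, where all genes had 0.71.

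Tpt1 had a log2 ratio of IP to input of -1.56 (-1.64 to -1.48) with shLarp1 and -2.44 (-2.51 to -2.37) with control, a 2.94-fold and a 5.43-fold lower level in the IP. It stayed below 0 under all 4 other scalings with shLarp1 (-2.06 to -0.22, not called at -0.22 with total counts) and with control (-2.93 to -1.46), and 5.48% of genes had a lower ratio with control. Eef1a2 had 1.80 (1.43 to 2.20) with shLarp1 and 1.49 (1.11 to 1.91) with control, and Eef2 had 1.07 (0.83 to 1.33) and 1.03 (0.78 to 1.30). Both stayed above 0 under the 4 other scalings, but Eef2 was not called with upper-quartile factors (0.57 with shLarp1, 0.55 with control). The ratio of Eef2 lay above that of 53.2% of genes with shLarp1 and 57.2% with control. Relative to Eef1a1, and so free of scaling, Eef1a2 was 2.10-fold higher in the IP than in input with shLarp1 (log2 1.07, 0.67 to 1.47) and 2.14-fold higher with control (1.10, 0.69 to 1.51).

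The eEF1B subunits stood apart from each other in this ratio. Eef1g had 1.30 (0.98 to 1.63) with shLarp1 and 0.35 (0.11 to 0.60) with control, while Eef1d had -0.54 (-0.76 to -0.31) and -0.75 (-0.97 to -0.52). The call of Eef1g with shLarp1 ended with upper-quartile factors (0.80), and that of Eef1a1 held under total counts alone of the 4 other scalings. Relative to Eef1d, Eef1g was 3.58-fold higher in the IP than in input with shLarp1 and 2.14-fold with control. Eef1b2 had 0.03 (-0.07 to 0.13) with shLarp1 and -0.21 (-0.30 to -0.12) with control, Naca -0.07 and -0.39, Btf3 0.31 and -0.52, Hnrnpa1 0.95 and 0.35, and Eef1a1 0.73 and 0.39. Apart from Tpt1, Eef1a2, Eef2 and, with shLarp1, Eef1a1, Eef1g and Hnrnpa1, the signs of these ratios depended on the scaling. Total counts, which moved the all-gene median by 1.34 with shLarp1 and 0.98 with control, turned Eef1d and Naca to above 0 with either virus and Eef1b2 and Btf3 with control. Upper-quartile factors, which moved it by -0.50 and -0.49, turned Eef1b2 and Btf3 to below 0 with shLarp1 and Eef1a1, Eef1g and Hnrnpa1 with control. DESeq2 size factors and a control IP reference also turned Eef1b2 with shLarp1.

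**Figure D5:**
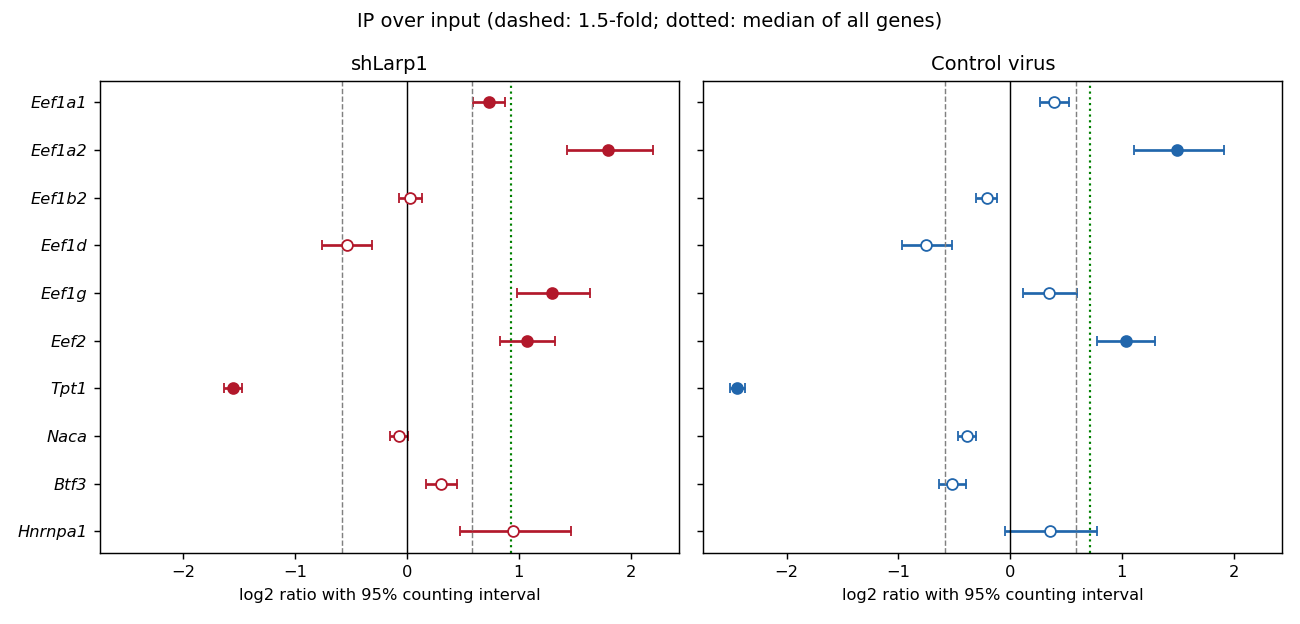
Log2 ratio of IP to input for each mRNA with shLarp1 (left) and with the control virus (right), with 95% counting intervals, dashed lines at 1.5-fold, a dotted line at the all-gene median (0.93 and 0.71) and filled points where called. Tpt1 is the lowest in both panels (-1.56 and -2.44) and Eef1a2 the highest (1.80 and 1.49).

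The 19 other TOP mRNAs outside the ribosomal proteins were measured beside the members. In the IP, Pabpc1 (poly(A)-binding protein) and Ybx1 (a Y-box RNA-binding protein) were lower and 17 were not called, with a median of -0.10. Over all genes 4.4% were lower in the IP. Pabpc1 had 454 counts in shLarp1 IP and 949 in control IP (log2 -1.22, -1.38 to -1.05), and Ybx1 had 445 in shLarp1 IP and 706 in control IP (-0.82, -0.99 to -0.64). Upper-quartile factors and total counts each moved all IP ratios by 0.13, and a control IP reference by 0.07. Each of these shifts ends the Ybx1 call but not that of Pabpc1. In input 0 of 19 were called, with a median of -0.33 beside -0.43 for the members and -0.14 for all genes. Vim (vimentin) had -0.08 in the IP and -0.13 in input, Eif3k -0.05 and -0.07, and Pfdn5 (a prefoldin subunit) 0.06 and 0.02. Of 82 ribosomal protein mRNAs, 0 were called in the IP (median -0.15) and 4 were lower in input (median -0.20): Rpl3, Rpl10, Rplp0 and Rps12, with -0.88, -0.90, -0.71 and -0.67. Over all genes 1.01% were lower in input, and 1.96% of those with at least as many input counts as Hnrnpa1. DESeq2 size factors and upper-quartile factors moved all input ratios by 0.21 and 0.14, which leaves only Rpl10 called of these 4. A control IP reference moved them by 0.23, which ends all 4 calls, and total counts by -0.23, which keeps them. The 3 ribosomal protein mRNAs with the highest level, Rpl38, Rpl41 and Rps29, had -0.05, -0.15 and -0.15 in the IP and 0.09, 0.26 and 0.06 in input.

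Factors that modify or assist elongation gave no call between viruses with TMM scaling. Of 20 such genes 15 passed the filter, and 0 were called in either fraction, with medians of -0.17 in the IP and -0.20 in input. Eif5a, which helps the ribosome through difficult peptide bonds, had 5071 counts in shLarp1 IP and 4583 in control IP (log2 -0.01, -0.06 to 0.05), and 366 in shLarp1 input and 492 in control input (-0.62, -0.82 to -0.43). Dph3, of the diphthamide pathway that modifies eEF2, had -0.17 in the IP and -0.32 in input. Eef1akmt3, a lysine methyltransferase of eEF1A, ran the other way in input, with 1580 counts in shLarp1 input and 885 in control input (0.64, 0.52 to 0.76, not called) and -0.27 in the IP. DESeq2 size factors, upper-quartile factors and a control IP reference moved all input ratios by 0.21, 0.14 and 0.23. Each of these shifts takes the Eef1akmt3 interval in input past 1.5-fold, while total counts moved it by -0.23. The Eef1akmt3 interaction of -0.91 (-1.06 to -0.76) was called lower.

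Of 11 termination, recycling and rescue factors 9 passed the filter and 0 were called, with medians of 0.01 in the IP and -0.10 in input (each pair of values here gives the IP and then the input log2 ratio). Abce1, which splits ribosomes after termination, had -0.21 and 0.37, Mcts1 0.01 and -0.47, and Denr -0.09 and -0.01. Of the 18 factors that meet nascent chains at the ribosome 0 were called (medians -0.06 and -0.09), with Srp14 of the signal recognition particle at 0.02 and -0.43 and the translocon subunits Sec61b at 0.08 and -0.08 and Sec61g at -0.15 and 0.17. Mitochondrial translation factors (7 of 10 tested) had medians of -0.02 and -0.20 with 0 called; the elongation factor Tufm had -0.20 and -0.71, Gfm1 0.72 and 2.26 on 11 counts in shLarp1 input and 2 in control input, and Gfm2 -0.62 and 0.34. The 6 hnRNP relatives of Hnrnpa1 had medians of -0.16 and -0.06 with 0 called. Among them Hnrnpa2b1 had -0.14 and 0.25, Hnrnpa3 -0.18 and -0.42 and Hnrnpab 0.05 and -0.38.

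Among 1077 genes with at least 100 counts in each group, the profiles over the 4 groups nearest to Eef1a1 were those of Ap2m1, Atp5g3 and Pdlim7, at Euclidean distances of 0.14 to 0.17 on the centred log2 scale. Those nearest to Eef2 were Ctsb, Jpt1 and Fabp3, at 0.10 to 0.14. Tpt1 had no neighbour as near, with the ribosomal protein mRNAs Rpl12 (0.34) and Rps13 (0.39) and the cyclophilin gene Ppia (0.44) closest. Eef1g had too few input counts for this comparison.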

How the data were processed

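The authors deposited 1 table of estimated counts per gene, in whole numbers with no depth scaling, for 12 GEO samples (3 columns in each of 4 groups). Per the submitters' processing notes, the tools were minimap2 and Salmon, with GRCm39 and mm39 as builds; no source used here gives their versions, the annotation, filters or use of strand. Such a table does not separate near-identical copies: RefSeq names pseudogenes of Eef1a1 (2), Eef2 (1) and Tpt1 (7), of which 0 were listed by name. Of the genes, 13711 had a symbol and 1680 had none.

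Counts were filtered with filterByExpr (minimum count 10; 8773 genes left), scaled with TMM in edgeR 4.0.16 (R 4.3.3) over the 12 columns, and summed per group. Log2 ratios carry exact Clopper-Pearson intervals. The interaction (with 0.5 counts added) and ratios of partner pairs use a normal approximation. Alternatives were DESeq2 1.42.0 size factors, upper-quartile factors, total counts, another TMM reference, no filter, a lower fold rule, columns left out, and edgeR and DESeq2 tests that take the columns as replicates. The method was tested on simulated data. Members, lists and tests were chosen with earlier results of these data known. The partner pairs other than Eef1a1 with Eef1a2, and the background of genes with enough counts, were added after values were seen. Named are all members, Larp1, Rpl22, the genes of each list that were called between viruses, the 3 of each list with the highest mean level, and for Eef1a1, Eef2, Tpt1 and Eef1g the 3 genes of nearest profile. The neuronal markers Uchl1 and Tubb3 are named as well.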

Additional observations from a re-analysis of the deposited data

Results flagged for a closer look

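Among the members, 2 mRNAs had a virus effect in the IP that differed from that in input by more than 1.5-fold with its whole counting interval. Tpt1 had a difference of 0.88 on the log2 scale (0.78 to 0.99), with -0.01 in the IP and -0.89 in input. Btf3 had 0.83 (0.64 to 1.01), with 0.17 in the IP and -0.65 in input. Over all genes 6.96% of 7581 were called in this difference, and 23.6% of the 1735 with at least as many input counts as the lowest member. With DESeq2 size factors neither was called (Tpt1 0.68, Btf3 0.62), and both rest on 1 sample per group.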

How the results depend on the processing

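Of 640 log2 values of members under alternatives, 506 moved by less than their counting error, 134 moved by more, and 0 changed sign where a call stood. In input, where 2 members and 90 genes were called, DESeq2 size factors gave 1 member and 216 genes, upper-quartile factors 1 and 160, a control IP reference 0 and 243, and total counts 211 genes. In the interaction (2 members, 528 genes) DESeq2 size factors called 0 members and a control IP reference 1. For IP over input with shLarp1 (5 members, 3421 genes) upper-quartile factors called 3 members (1 higher), and total counts 8 members (8 higher) and 6931 genes. With control (3 members, 3116 genes) upper-quartile factors called 6 members (1 higher), and total counts 7 members (6 higher) and 5200 genes. Total counts turned the IP to input ratio of Rplp0 (0.44), Rps29 (0.31) and Sec61g (0.63) with shLarp1 and of Rpl3 (0.17) and Rps29 (0.16) with control to above 0; that scaling shifts every gene alike. With no filter 1066 genes were called in the IP, where 449 were. A lower fold rule called 1263 genes in the IP, 482 in input, 895 in the interaction, and 5 members in control IP over input.

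Taking columns as replicates, whose spread is about that of counting noise, edgeR called 5 members and 2434 genes in the IP, 6 and 779 in input, 6 and 975 in the interaction, 8 and 5367 in shLarp1 IP over input, and 9 and 4862 in control IP over input. With a replicate block it called 5 and 2311, 6 and 754, 6 and 955, 8 and 5275, and 9 and 4772, in the same order. Deviations of columns with the same number correlated at -0.06 to 0.04 over 18 pairs. Since the columns differ by about counting noise, this check cannot show whether the numbers pair them. DESeq2's Wald test called 3 members and 1881 genes in the IP, 4 and 910 in input, 974 genes in the interaction, 9 members in shLarp1 IP over input and 8 in control IP over input.

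Leaving out 1 column at a time left 0 members and 210 to 250 genes called in the IP, fewer than the 449 genes with all columns. It left 1 to 2 members and 66 to 210 genes in input, and 1 to 3 and 461 to 559 in the interaction. For IP over input it left 4 to 5 and 2901 to 3015 with shLarp1, and 3 and 2589 to 2702 with control. The cause was not tested. The groups hold 1 sample each, and input counts of 59 in shLarp1 and 55 in control for Eef1a2, 83 and 154 for Eef1g, and 37 and 55 for Hnrnpa1 limit what could be detected.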
